A study of Sus scrofa with 6 samples.

Results

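EPCAM, CDH1, DSP, KRT8, KRT18, KRT19, SPINT2 and S100A14 are genes that simple epithelia, the single-layered sheets that line glands, ducts and body cavities, use for their cytoskeleton and for holding cells together. They were followed here through every probe set whose single gene symbol on the array platform was one of these 8. There were 12 such probe sets among 23999, with 2 each for CDH1, DSP, KRT8 and SPINT2 and 1 each for the other 4 genes.

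The RNA came from sows at 3 stages, namely not pregnant, in early pregnancy or in late pregnancy. At each stage 1 array was hybridised with RNA of the ovary and 1 with RNA of the myometrium, the smooth muscle wall of the uterus, so there were 6 arrays and no group had a replicate. The arrays labelled myometrium are called uterine arrays here, since their muscle markers were no higher than those of ovary. The design text counts 9 pigs, 3 at each stage, but the sources used here do not say whether an array carried RNA of 1 animal or of several, nor the day of pregnancy, breed or age.

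In simple epithelia, the type II keratin KRT8 pairs with the type I keratins KRT18 or KRT19 to form the intermediate filaments of the cell. These filaments are anchored by DSP, desmoplakin, to desmosomes, the spot-like junctions between neighbouring cells, whereas CDH1, E-cadherin, builds the adherens junctions through catenins in the cytoplasm, and EPCAM is a further adhesion molecule of the epithelial surface. SPINT2 is a membrane-bound inhibitor of serine proteases, and S100A14 belongs to the family of S100 proteins, many of which bind calcium. The uterus carries such an epithelium on its inner surface and in its glands.

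All 8 genes were far higher on the 3 uterine arrays than on the 3 ovary arrays. EPCAM was 74.2-fold higher (95% interval 47.4 to 116), KRT18 at least 53.8-fold, KRT19 at least 53.7-fold, CDH1 37.5-fold, KRT8 24.0-fold, SPINT2 17.0-fold, DSP 15.2-fold and S100A14 7.97-fold. All 4 keratin probe sets were lowest of the uterine stages on the early pregnant array, at 2.02-fold to 4.0-fold below the non-pregnant one, and DSP was also lowest there, at 0.715 of the non-pregnant value. Of the probe sets above the floor on all 3 uterine arrays, 33.7% were lowest on that array. In contrast, EPCAM and CDH1 read there between 1.06 and 1.22 times and SPINT2 and S100A14 1.57 and 1.47 times the non-pregnant value, although EPCAM read lower than the non-pregnant value after quantile normalization. Each of these stage values rests on a single array and has no test.

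The label of the uterine arrays was checked against marker genes. Of 9 measured smooth muscle markers, 0 passed the tissue test in either direction (limma, 6 at an unadjusted p under 0.05), and their summed signal was 19168.5 to 32036.8 on the uterine arrays and 38797.7 to 61915.1 on the ovary arrays. Of 8 tested markers of uterine glands, 3 passed, all higher on the uterine arrays, namely WFDC2, S100G and RBP4. RBP4 passed narrowly (limma adjusted p = 0.0482). The glandular sum was 25499.5 on the non-pregnant, 113692 on the early pregnant and 144475 on the late pregnant uterine array, against 2356.1 to 8053.4 in ovary. Markers of trophoblast, the outer layer of the conceptus, summed to 750 on the non-pregnant uterine array and to 28083.6 and 40739 on the early and late pregnant ones, led by PAG6, a pregnancy-associated glycoprotein. Of 6 tested trophoblast markers 0 passed the tissue test (limma, 3 at an unadjusted p under 0.05). That test takes the uterine arrays of all stages together, so it cannot judge a signal found on the pregnant ones alone. PAG6 read 75.2, 22021.8 and 28500.2 on the uterine arrays in order of stage, and GATA3 59.2, 3167.8 and 2777.6. HAND1 (50.4, 448.8 and 873.5), TFAP2C (51.7, 204.2 and 142.6) and PEG10 (350.8, 435.2 and 8302.1) were also higher on both pregnant arrays. GCM1 read 88.7, 86.2 and 78.2. Markers of luteal and granulosa cells, which are cells of the ovary, summed to 869.9, 11029.4 and 13834.5 on the uterine arrays in order of stage. In ovary the sums were 91795.3 to 104440.8. The rise on the pregnant uterine arrays was carried by STAR (13.2, 5573 and 6906.8), CYP11A1 (22.1, 1502.2 and 4452) and HSD3B1 (64.1, 3100.8 and 1822). LHCGR, INSL3, FSHR and AMH of that list lay under the floor on all 3 uterine arrays. RLN2 read 118.5, 150.4 and 75.4 there, and INHA 82.1, 124 and 64.8. Of 11 tested markers of the list, 7 passed, all higher in ovary (limma). Since the arrays read bulk tissue, fewer cells of a type and less RNA per cell cannot be told apart, and the part of these cell types in the members' values was not tested.

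Signals are MAS5 values, linear brightness per probe set, and a floor of 81.7, the 40th percentile of all signals, marks the level under which values were not ordered. The tissues were compared on the log2 scale by an additive limma fit of tissue and stage over 15882 probe sets, in which arrays of different stages stand in for replicates. Its p-values thus measure agreement over these arrays and not over animals. Across the table, 2.23% of the tested probe sets were higher on the uterine arrays at an adjusted p under 0.05. Of the members, 11 of 12 probe sets were bright enough to be tested, and 10 of these were higher there and 0 in ovary, where 2.84% of the table was. Members could pass the brightness filter through the uterine arrays alone, so this count describes them and was not used as a test of the group. The median log2 difference, uterine minus ovary, was 4.09 over the members and -0.013 over all tested probe sets.

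The adhesion molecules EPCAM and CDH1 varied little across the uterine stages. EPCAM read 10255.6, 10845.3 and 9667 on the non-pregnant, early pregnant and late pregnant uterine arrays, and 191.3, 131.9 and 104.3 on the ovary arrays in the same order. The uterine values had a coefficient of variation of 5.74% (SD over mean, n = 3 arrays of different stages), and the lowest of them was 50.5 times the highest ovary value. The log2 difference was 6.21 ± 0.26 (SE, limma adjusted p = 0.00358).

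The brighter CDH1 probe set read 6715.2, 8191.8 and 7981.1 on the uterine arrays and 204.5, 321.6 and 126.9 in ovary. The uterine and ovary values did not overlap, and the log2 difference was 5.23 ± 0.32 (SE, limma adjusted p = 0.00358). E-cadherin in ovary was highest on the early pregnant array and 2.53-fold lower on the late pregnant one, without a replicate. The dimmer CDH1 probe set lay under the floor on all 3 ovary arrays and read 795.9, 945.1 and 756.9 on the uterine arrays, so that it was at least 10.1-fold higher there (limma adjusted p = 0.00835). Both CDH1 probe sets were highest at the early pregnant stage.

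Desmoplakin was lowest of the 3 stages on the early pregnant array in uterus and highest on it in ovary. The brighter DSP probe set read 2440.6, 1744.5 and 2145.8 on the uterine arrays and 84.0, 210.4 and 148.3 on the ovary arrays. Its non-pregnant ovary value lay just above the floor, and the tissue ratio was 29.1-fold at the non-pregnant, 8.29-fold at the early pregnant and 14.5-fold at the late pregnant stage. The log2 difference was 3.92 ± 0.41 (SE, limma adjusted p = 0.0122). The other DSP probe set read at most 38.6 on any array and was not tested.

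The keratins were bright on every uterine array, and in ovary KRT18 lay under the floor while KRT19 and the brighter KRT8 probe set were dim. KRT18 read 5960.1, 2465.8 and 5762.4 on the uterine arrays and 10.5, 36.7 and 2.7 on the ovary arrays, all 3 under the floor. Its log2 difference was therefore at least 5.75 (limma adjusted p = 0.00368). KRT19, the keratin that has almost no tail domain, read 8235.8, 4083.7 and 6432.9 on the uterine arrays and 132.5, 128.9 and 75.9 in ovary. The last of these lay under the floor, so the log2 difference was 5.75 ± 0.33 or more (SE, limma adjusted p = 0.00358).

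KRT8 stayed above the floor on all 3 ovary arrays by its brighter probe set. The brighter KRT8 probe set read 9978, 4496.3 and 8210.5 on the uterine arrays and 383, 248.8 and 278.8 in ovary, a log2 difference of 4.59 ± 0.24 (SE, limma adjusted p = 0.00358). The dimmer KRT8 probe set read 2047.3, 511.4 and 708.3 on the uterine arrays, and in ovary it passed the floor on the early pregnant array alone, at 85.7. Since the non-pregnant and late pregnant ovary values were raised to the floor, its log2 difference was 3.45 ± 0.46 or more (SE, limma adjusted p = 0.0192). Both probe sets thus gave the same direction. They differed in the late pregnant uterine value, which was 0.823 of the non-pregnant value by the brighter and 0.346 by the dimmer probe set.

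The brighter SPINT2 probe set and S100A14 were likewise higher on the uterine arrays. The brighter SPINT2 probe set read 3338.2, 5242.6 and 4647.9 on the uterine arrays and 187.4, 259.3 and 339.5 on the ovary arrays. Its log2 difference was 4.09 ± 0.25 (SE, limma adjusted p = 0.00358), and both pregnant arrays read higher than the non-pregnant array in each tissue. The dimmer SPINT2 probe set exceeded the floor on the 2 pregnant uterine arrays alone, at 146.2 and 152, and was the tested member that did not pass, with a log2 difference of 0.58 (95% interval -0.04 to 1.20, limma adjusted p = 0.256).

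S100A14 read 1033.2, 1519.2 and 1297.1 on the uterine arrays and 198.7, 116.6 and 173.3 in ovary. These groups did not overlap either, and the lowest uterine value was 5.20 times the highest ovary value. The log2 difference was 3.00 ± 0.35 (SE, limma adjusted p = 0.0155). In all, 10 of the 11 tested member probe sets had every uterine array above every ovary array, where 12.8% of all tested probe sets did.

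**Figure D1:**
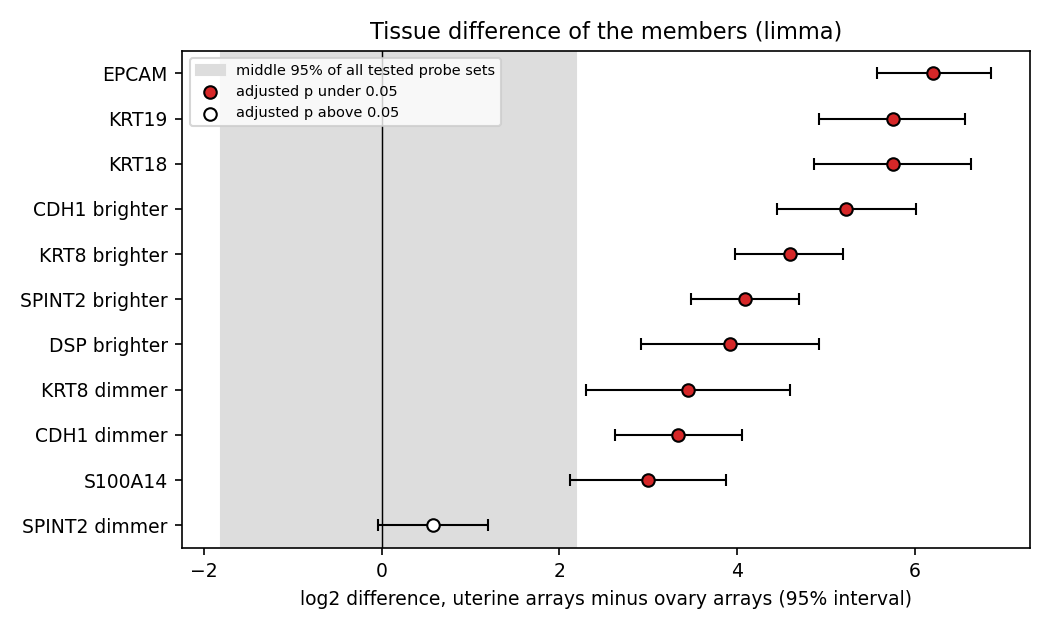
Log2 difference between the uterine arrays and the ovary arrays for the 11 tested probe sets, with 95% intervals from limma; filled points passed an adjusted p of 0.05. The grey band spans the middle 95% of all 15882 tested probe sets, from -1.81 to 2.19, and the dimmer SPINT2 probe set is the member inside it.

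How many members passed depended on the early pregnant arrays and on the filter on dim probe sets. With the early pregnant arrays left out and the probe sets tested kept as they were, 0 of the 11 member probe sets and 0 of the whole table passed (limma, 10 members at an unadjusted p under 0.05, and member adjusted p from 0.0711). With the filter taken again on the 4 remaining arrays, a choice added after the first counts had been seen, 6 of 10 member probe sets passed, where 28 of 15131 probe sets of the table were higher on the uterine arrays, and DSP and S100A14 were the genes lost. Without the filter on dim probe sets 0 of the 11 passed, again with 10 at an unadjusted p under 0.05. In each of these fits every tested member had the same direction as with all arrays.

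The stages were then compared among the uterine arrays, where each side is 1 array and no test is possible. The keratins read lower in early pregnancy than without pregnancy. KRT18 was 2.42-fold lower, KRT19 2.02-fold, and KRT8 2.22-fold by the brighter and 4.0-fold by the dimmer probe set. These were 4 of the 11 measured member probe sets at 2-fold or more, where 10.3% of 15836 measured probe sets were that much lower, and 0 members were 2-fold or more higher, against 8.76% of the table. KRT19 lies at the edge of the threshold, and with arrays centred on the median 3 members passed it.

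On the late pregnant uterine array the keratin signals were higher than on the early pregnant one. KRT18 was 2.34-fold, KRT8 by its brighter probe set 1.83-fold and by its dimmer one 1.39-fold, and KRT19 1.58-fold higher on the late than on the early pregnant array. KRT18 alone passed 2-fold, where 5.87% of the probe sets did, and 0 members were that much lower, where 5.62% were. Set against the non-pregnant array, the late pregnant values were 0.967 for KRT18, 0.823 and 0.346 for the KRT8 probe sets and 0.781 for KRT19, and the dimmer KRT8 probe set was the 1 member 2-fold or more lower, where 12.6% of the table was. None was 2-fold higher, where 10.9% of the table was.

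CDH1, SPINT2 and S100A14 did not read lower on the early pregnant than on the non-pregnant uterine array, and EPCAM did so only after quantile normalization, among the floors and scalings tried. From the non-pregnant to the early pregnant uterine array, the log2 ratio was 0.08 for EPCAM, 0.29 and 0.25 for the CDH1 probe sets, 0.65 for the brighter SPINT2 probe set and 0.56 for S100A14, and it was -0.48 for DSP. Of the 10 member probe sets above the floor on all 3 uterine arrays, 5 were lowest on the early pregnant array (the 4 of the keratins and the brighter DSP one) and 5 were highest there. Over the whole table, 33.7% of such probe sets were lowest and 23.5% highest there. The 5 lowest were the same under every floor and scaling tried. Quantile normalization left 3 of the other 5 highest there, since EPCAM then read 10849.3, 10238.4 and 9415.7 in order of stage and the brighter CDH1 probe set 7262.1, 7561.6 and 7652.4.

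Because EPCAM is read on the same arrays, the change of each member relative to it does not depend on a single factor by which an array is scaled. Relative to EPCAM, KRT18 changed by -1.35 on the log2 scale from the non-pregnant to the early pregnant uterine array and by 1.39 from the early to the late pregnant array. The corresponding changes were -1.23 and 1.03 for the brighter KRT8 probe set and -1.09 and 0.82 for KRT19. The dimmer KRT8 probe set changed by -2.08 and then by 0.64. For the CDH1 probe sets they were 0.21 and 0.13 (brighter) and 0.17 and -0.15 (dimmer), and for DSP -0.57 and 0.46. The brighter SPINT2 probe set changed by 0.57 and -0.01 and S100A14 by 0.48 and -0.06, thus upwards relative to EPCAM on the early pregnant array. The ratios show unequal change among these genes on the arrays and not which of them moved.

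**Figure D2:**
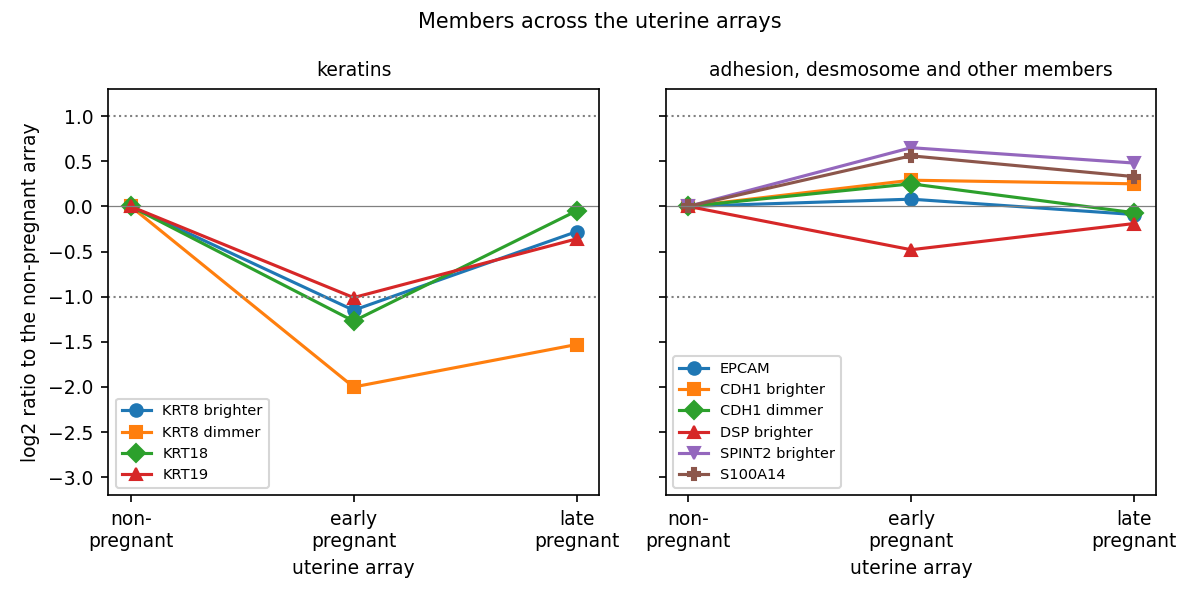
Log2 ratio of each member probe set to the non-pregnant uterine array, for the 10 probe sets above the floor on all 3 of these arrays; dotted lines mark 2-fold. The 4 keratin probe sets (left) fall to between -1.01 and -2.0 at the early pregnant stage, and the other members (right) lie between -0.48 and 0.65.

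Some genes of the lists of related genes and markers had a similar dip, and those given here were chosen after their values were seen. PPL, periplakin, which links filaments to junctions, read 952.2, 395.9 and 1463 on the uterine arrays in order of stage. UPK1B, a uroplakin of urothelial and mesothelial surfaces, read 4688.9, 371.1 and 4929.1. Of the same list of mesothelium and ovarian surface markers, WT1 did not share the dip. It read 192.4 on the non-pregnant uterine array and lay under the floor on both the early and the late pregnant one. CALB2 of that list lay under the floor on all 6 arrays. S100G, the calcium-binding protein calbindin-D9k, read 18567.9, 1345.2 and 9804.1. The markers of ciliated cells ROPN1L (597.2, 259.3 and 835.1) and TPPP3 (727.8, 294.4 and 1049.9) were also lowest on the early pregnant array. Of the other 2 genes of that list on the array, CAPS was not, as it read 103.3, 113.9 and 24.5. TEKT1 lay under the floor on every array, so its values were not ordered. The sums of gland and trophoblast markers were instead high on both pregnant arrays. The gland sum there was carried by ACP5, UABP-2, SPP1, RBP4 and WFDC2, and not all genes of that list followed it. S100G belongs to the same list. So do MUC1 (193.4, 123.2 and 443.9), lowest on the early pregnant array, and FOXA2 (693.9, 460.8 and 155.2), lowest on the late pregnant one. FGF7 and PAEP of the list passed the floor on 1 array each. The part of gland and trophoblast cells in the keratin values was not tested.

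In ovary the members were dim, and 12 of the 33 ovary values of the tested probe sets lay under the floor. Between the non-pregnant and early pregnant ovary, 1 of 8 measured member probe sets, the brighter DSP one, was 2-fold or more higher (2.5-fold, where 2.45% of the table was) and 0 were lower (2.15% of the table). Between the early and late pregnant ovary, 1 of 8, the brighter CDH1 one, was 2-fold or more lower, where 2.71% of the table was, and 0 were higher (1.5% of the table). Between the non-pregnant and late pregnant ovary 0 of 7 passed 2-fold in either direction, where 2.92% of the table was higher and 3.65% lower. EPCAM read lower at each stage of pregnancy than in the non-pregnant ovary, and SPINT2 higher.

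Stage changes common to the tissues were read from the additive fit. By limma, 0 of the 11 probe sets had an adjusted p under 0.05 in any of the 3 stage contrasts, as did 0% of the whole table. At an unadjusted p under 0.05, 1 member did, the brighter KRT8 probe set between early pregnant and non-pregnant (log2 difference -0.89 ± 0.30, SE, adjusted p = 0.822), beside 686 probe sets of the table. It read lower on the early pregnant array in both tissues.

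The other genes of the same pathways were read from 11 lists of related genes. Of 44 tested genes, 15 were higher on the uterine arrays, 0 in ovary and 29 did not pass, where 2.5% and 2.89% of the 5671 tested named genes were higher on the uterine arrays and in ovary. The lists were written with earlier results of these data known.

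Some desmosome genes were higher on the uterine arrays, whereas no adherens junction partner passed. Of 3 further desmosome and junction genes, PPL (log2 difference 3.33 or more, limma adjusted p = 0.0182) and PERP, a desmosomal membrane protein (2.07, adjusted p = 0.0190), were higher on the uterine arrays, and JUP, plakoglobin, did not pass (0.65, adjusted p = 0.241). Of 4 tested partners of the adherens junction 0 passed (limma, 1 at an unadjusted p under 0.05). Among them CTNNB1, beta-catenin, which binds the tail of E-cadherin, had a log2 difference of 0.08 (adjusted p = 0.767), with 15625.8, 11975.1 and 12310 on the uterine arrays and 14015.9, 11657 and 11843 in ovary. The other 3, the actin linker VCL (-0.49), the adhesion receptor NECTIN2 (-0.21) and PDZD11 (-0.13), did not pass either (adjusted p = 0.213, 0.673 and 0.800). Of 4 other cadherins 0 passed either (3 at an unadjusted p under 0.05). CDH5, the cadherin of endothelium, differed by -0.25 and CDH11, a cadherin of mesenchymal cells, by -1.08 (adjusted p = 0.598 and 0.0872). CDH13, which lacks the tail of classical cadherins, differed by 1.64 (adjusted p = 0.0736). CDH17, an intestinal cadherin under the floor on all ovary arrays, differed by 1.40 or more (adjusted p = 0.0691), and it passed with the floor at the 25th percentile (0.0199), with a pseudocount of 16 in place of the floor (0.0175) and without stage as a block (0.0467).

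The serine protease list, which holds membrane proteases and inhibitors such as SPINT1, had 5 of 6 tested genes higher on the uterine arrays, with a median log2 difference of 2.86 against -0.03 over all tested named genes. ST14, the membrane protease matriptase, read 798.2, 1479.3 and 2078.7 on the uterine arrays and at most 102.1 in ovary (log2 difference 3.94 or more, limma adjusted p = 0.0124). PRSS8, prostasin, lay under the floor on every ovary array, and its log2 difference was 3.09 or more (adjusted p = 0.0103). SPINT1, the inhibitor related to SPINT2, read 228.6, 575 and 1002.9, with ovary values under the floor (2.64 or more, adjusted p = 0.0356). HPN, hepsin (1.79 or more), and the secreted inhibitor SLPI (5.72) passed as well.

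Among regulators of epithelial identity, ESRP1, an RNA-binding protein of epithelial splicing, and the ETS factors ELF3 and EHF were higher on the uterine arrays, 3 of 6 tested. The log2 differences were 3.73 or more for ESRP1, with the late pregnant ovary value under the floor, and, with every ovary value under it, 2.88 or more for ELF3 and 2.17 or more for EHF. FOXA2, a regulator of uterine glands, read 693.9, 460.8 and 155.2 there and at most 13.5 in ovary, and did not pass (limma adjusted p = 0.0598). From the list of repressors of epithelial genes TWIST2 alone could be tested, with all ovary values under the floor. It did not pass (1.09 or more, adjusted p = 0.205), but did with the floor at the 25th percentile (2.37, adjusted p = 0.0492) and with the pseudocount (3.20, adjusted p = 0.0255). In the polarity list MYO5B, a motor of apical recycling, and MARVELD3, a tight junction protein, passed, and MAL2 did not.

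Most other S100 genes and filament genes did not pass. Of 8 other S100 genes, S100G (6.26 or more) and S100A10 (1.03, limma adjusted p = 0.0432) were higher on the uterine arrays and 6 did not pass. Of the latter, S100A9 had a difference of 1.33 or more (adjusted p = 0.124) and S100A11 of 0.60 (adjusted p = 0.102). CD9, a tetraspanin that associates with EPCAM, was higher there (1.58, adjusted p = 0.0186), and CD82, another tetraspanin, did not pass (-0.73, adjusted p = 0.223). Of 6 tested filament genes other than keratins, 0 passed (limma, 1 at an unadjusted p under 0.05). VIM, vimentin, the filament of mesenchymal cells, read 13467.3, 15781.1 and 17029.1 on the uterine arrays and 35681.8, 31289.1 and 24130.3 in ovary (log2 difference -0.97 ± 0.20, SE, adjusted p = 0.0548). Among the others, the muscle filaments DES, desmin, and SYNM, synemin, differed by -1.22 and -0.68 and the nuclear lamin LMNA by -0.22 (adjusted p = 0.247, 0.543 and 0.653). KRT10, the keratin of stratified epithelium and the only other keratin that could be tested, differed by -0.64 (adjusted p = 0.289) and read 1544.8, 500.2 and 567.1 on the uterine arrays.

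Several of these calls turned with the floor or the fit, the fits without the filter or without a stage aside. With the floor at the 60th percentile, PPL, SPINT1, HPN, ELF3, EHF and MARVELD3 no longer passed (limma adjusted p from 0.0691 to 0.299). MARVELD3 was also lost with quantile normalization, median centring or no intensity trend, and S100A10 with quantile normalization (0.0669) or no trend (0.0936). FOXA2 passed with the floor at the 25th percentile (0.0209), with the pseudocount and without the stage block. VIM was lower on the uterine arrays with the pseudocount (0.0374) and without the stage block (0.0338), as was CDH11 without the stage block (0.0455).

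**Figure D3:**
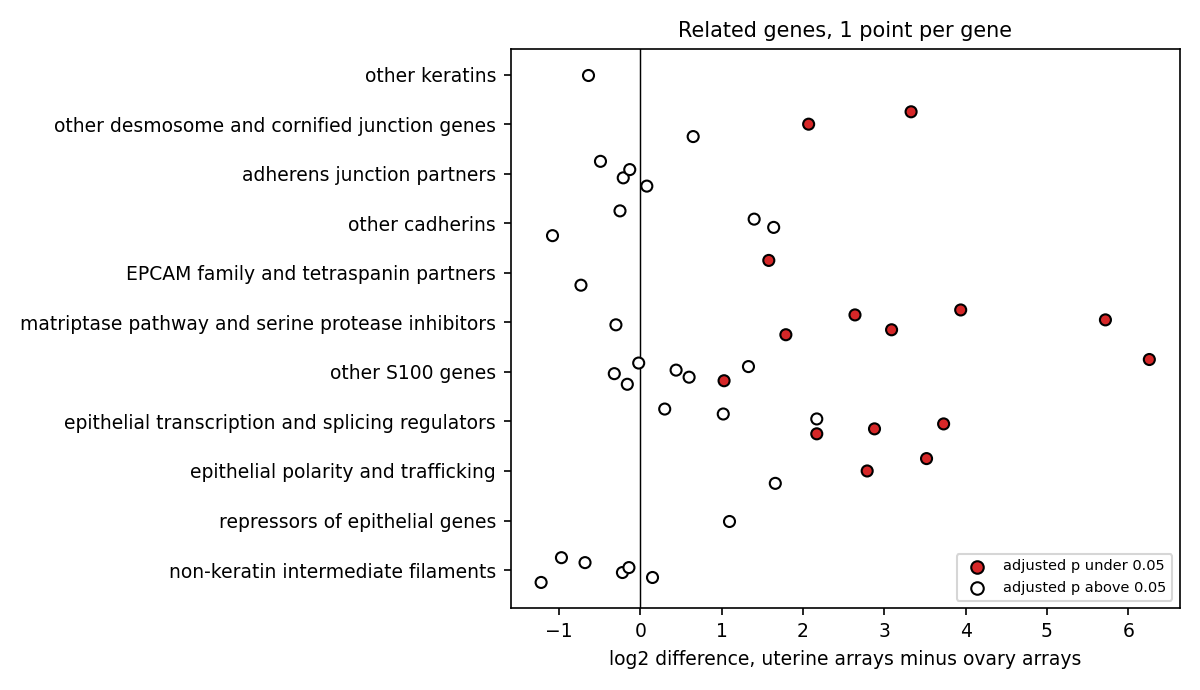
Log2 difference between the uterine arrays and the ovary arrays for the 44 tested genes of 11 lists of related genes, 1 point per gene at its brightest probe set; filled points passed a limma adjusted p of 0.05. All 15 filled points lie to the right of 0.

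The genes whose pattern over the 6 arrays was most like the mean of the members were taken from 935 named genes with a log2 range of at least 2. The 8 nearest were GPRC5C, an orphan receptor, RAB19, PRSS8, MYO5B, the claudin CLDN7, SLC44A4, PLPP2 and the homeobox gene DLX5, with Pearson's r between 0.9961 and 0.9991 over 6 arrays. Because the arrays fall into 2 tissues, r mostly reads the tissue difference, and 57 genes had r of 0.95 or more. GPRC5C, the nearest, read 719.2, 565.1 and 720.3 on the uterine arrays and at most 89.3 in ovary. Each member's own r with the mean of the other 7 lay between 0.9718, for S100A14, and 0.995, for KRT19.

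Gene order in the Sscrofa11.1 assembly was read for the members' surroundings. KRT8 and KRT18 are neighbours on chromosome 5, and the other members lie on chromosomes 3 (EPCAM), 4 (S100A14), 6 (CDH1 and SPINT2), 7 (DSP) and 12 (KRT19). Of the 2 nearest protein-coding genes on each side of every member, 7 non-members had a tested probe set, and 0 passed the tissue test (limma, 1 at an unadjusted p under 0.05). PPP1R14A, beside SPINT2, had the largest log2 difference among them, 1.06 (adjusted p = 0.121).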

How the data were processed

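The authors deposited linear intensity values. The submitters' processing notes name MAS5 and no version. On every array the trimmed mean (2% at each end) was 500.1, a common scale that hides changes in total RNA. Of 24123 probe sets, 124 controls were left out. Each array had 57.4% to 61.6% of its probe sets above the floor.

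Signals were raised to a floor of 81.7 before log2. Probe sets above it on at least 2 arrays were fitted with limma 3.58.1 (R 4.3.3; tissue plus stage, intensity trend, 2 residual degrees of freedom, Benjamini-Hochberg over all tested), a fit tested on simulated data. The simulated data had independent normal noise, with neither floored values nor stage effects. They therefore do not show how the fit behaves where these are present. Gene symbols came from the platform annotation. Checked by gene identifier for 9961 probe sets, 0 changed. A gene with several probe sets was read at its brightest in lists. Named were all members, from each list the 4 genes with the largest absolute tissue difference plus those past the threshold, and the 8 genes most alike in pattern. The same rule held for marker lists, of which the text gives counts, sums and a few genes only. Further genes, named for their dip at the early pregnant stage or their part in a marker sum, were chosen after their values were seen. So were the genes of the same lists set beside them and the genomic neighbours. The members and lists were chosen with earlier results of these data known. The alternatives were other floors (33.7 and 246.2), a pseudocount of 16, other scalings, no filter, no trend, no stage block, leaving out a stage (with the filter from all arrays or, added later, from the remaining ones), and averaged probe sets. Precision is limited by the number of arrays.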

Additional observations from a re-analysis of the deposited data

How the results depend on the processing

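All 8 members were higher on the uterine arrays with the brighter probe set, and 8 passed under each alternative, except that 0 passed without the filter on dim probe sets and 0 to 8 when a stage was left out (0 without early pregnant and 7 without late pregnant arrays, where S100A14 was lost at an adjusted p of 0.0574 by limma). In those fits the filter on dim probe sets was kept from all 6 arrays. Taken on the 4 remaining arrays instead, it left 8 members without the non-pregnant, 6 without the early pregnant and 8 without the late pregnant arrays, and 2 to 17 related genes higher on the uterine arrays and 0 to 1 in ovary. Over the whole table the choice moved the probe sets higher on the uterine arrays from 260, 0 and 118 to 1036, 28 and 299 and those higher in ovary from 138, 0 and 109 to 1012, 28 and 344, in the same order. The filter from all arrays was settled on after both sets of counts had been seen. Every tested member probe set kept its direction under all 15 alternatives. The 15 related genes higher on the uterine arrays became 9 with the floor at the 60th percentile, 0 without the filter and 0 to 7 with a stage left out; the 0 higher in ovary became 1 with the pseudocount and 2 without the stage block. With quantile normalization, 3 of 5 member probe sets stayed highest at the early pregnant stage (an alternative chosen after seeing the data). The 8 genes of like pattern shared 4 with those found with the pseudocount.

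Among the counts of members at 2-fold in ovary, the 1 higher in early pregnancy became 2 with the floor at the 25th percentile or the pseudocount and 0 with the floor at the 60th, and the 1 lower between early and late pregnancy likewise became 2, 2 and 0. Centring on the median gave 1 member higher in late than in non-pregnant ovary in place of 0. The floor at the 25th percentile gave 1 member higher on the late than on the non-pregnant uterine array in place of 0. The cause of these changes was not tested. The tissues were paired by stage in the fit, and without that stage block 8 members passed as well. The labels carry no replicate numbers by which to pair arrays otherwise. Values near the floor limit what the ovary arrays can show.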
